A study of Mus musculus with 7 samples.

Results

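Secreted Wnt inhibitors are proteins that cells release to restrain Wnt signalling from outside the cell, and 10 of their genes were followed here in cultured fetal mouse kidneys. The genes were Wif1, Notum, Dkk1, Dkk2, Dkk3, Sfrp1, Sfrp2, Sfrp4, Sfrp5 and Frzb, taken by symbol from the 22363 gene symbols kept in the deposited tables. Each symbol was found in all 7 tables, with 1 entry in each. Of the 10 genes, 9 averaged 1 FPKM or more and were among the 13469 genes tested, and Sfrp5 was not. FPKM is a count of sequenced fragments scaled for transcript length and library size, so levels of different genes can be set side by side.

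The series holds poly-A RNA sequencing of 7 kidney cultures on the C57BL/6 strain. In 3 of them E2-2 was deleted, and the other 4 were E2-2 wildtype, so that the comparison concerns E2-2 deletion in kidneys with activated beta-catenin. E2-2, encoded by Tcf4, belongs to the E proteins, basic helix-loop-helix factors that bind E-box sequences. Beta-catenin, the intracellular effector of canonical Wnt signalling, was activated in both genotypes, and no culture without that activation was analysed here. Tamoxifen (2 mg for each 40 g of weight) was injected into the dams on day 10.5 of gestation. Kidneys taken at 10.5 days then spent 3 to 4 days in culture, with no length given for single cultures. The labels give neither the driver of the recombination nor the cells that carried it, and they do not say whether the libraries came from separate animals, so every p-value reflects the spread among these libraries alone, which may be technical.

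Wnt ligands are lipid-modified proteins that bind a Frizzled receptor and an LRP co-receptor and thereby stabilise beta-catenin, which then works with TCF/LEF factors on target genes. The inhibitors act at 3 places in that route. Wif1 and the secreted frizzled-related proteins (Sfrp1, Sfrp2, Sfrp4, Sfrp5 and Frzb) bind the ligands themselves, Notum removes the lipid that ligands need, and Dkk1 and Dkk2 occupy the LRP co-receptors. Several of these genes are themselves targets of beta-catenin in other tissues, which gives negative feedback. In the embryonic kidney, Wnt signals from the ureteric bud and the mesenchyme drive the formation of nephrons.

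Tcf4, the targeted gene, was read at 33.5, 41.7 and 42.0 FPKM in deleted replicates 1 to 3, against 48.8, 58.1, 28.7 and 39.2 FPKM in wildtype replicates 1 to 4. The groups overlapped, with a log2(FPKM + 1) difference of -0.12 (SE 0.23; limma adjusted p = 0.884). Which exons were removed is not given in the labels and a level over the whole gene can miss a short deletion, so the genotypes rest on the labels alone. Inferred depth was 17.6 to 24.8 M (mega) fragments in the deleted libraries and 14.5 to 26.6 M in the wildtype libraries. All 15 kidney rudiment markers, Pax2, Wt1 and Six2 among them, had a mean of at least 1 FPKM. Their summed level was 267 to 585 FPKM in deleted libraries and 423 to 622 FPKM in wildtype libraries. Deleted replicate 2 stood lowest, at 267 FPKM. That library also had the highest level of 6 of the 9 inhibitors tested, against 17.2% of all genes tested, and each difference below is therefore also given without it where that matters. The deposited names begin with BI (deleted replicates 1 and 2, wildtype replicates 1 and 2) or BM (deleted replicate 3, wildtype replicates 3 and 4). What the prefixes stand for is not given in the labels, and differences within each are given for the members described. In bulk RNA, more cells of a type and more RNA per cell cannot be told apart.

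No inhibitor passed the test over all genes, and Wif1, Notum and Frzb were the members that were higher in all 3 deleted libraries than in any wildtype library. By limma, 0 of the 9 passed an adjusted p of 0.05, as did 0% of all genes tested. At an unadjusted p under 0.05, 3 of the 9 were higher in the deleted libraries, against 3.29% of all genes, and 0 were lower, against 1.2%. The same 3 had groups that did not overlap in the upward direction (2.84% of all genes), and 0 had such groups in the downward direction (2.05%). The median difference over the 9 was 0.38 on the log2(FPKM + 1) scale, deleted minus wildtype, beside -0.05 over all genes tested, of which 39.3% were positive. Without deleted replicate 2, the median over the 9 was 0.11. Then 2 of the 9 were higher at an unadjusted p under 0.05, against 1.52% of all genes.

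**Figure D1:**
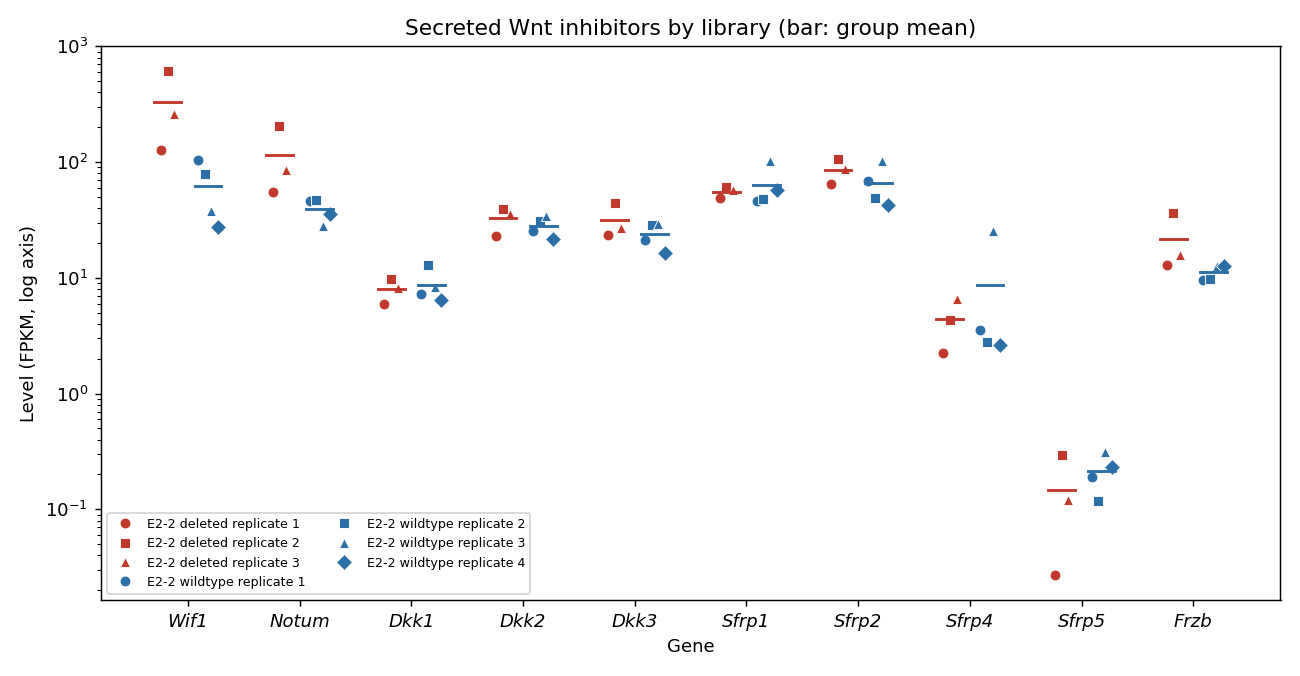
Level of the 10 secreted Wnt inhibitors (FPKM, log axis) in each library, E2-2 deleted in red (n = 3) and E2-2 wildtype in blue (n = 4), with a bar at each group mean. The red points of Wif1, Notum and Frzb lie above all blue points, while those of the other 7 genes overlap with them.

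Proximal promoters are shown for the inhibitor with the largest difference (Wif1), for Frzb, whose groups also did not overlap, and for Dkk1, whose groups did. The sequences are the 250 bases before the start of the gene in RefSeq, build GRCm38.p6, 5′ to 3′ on the strand of the gene. Capitals mark matches on either strand to the TCF/LEF letters CTTTGAT or CTTTGAA, or to the E-box letters CAGCTG or CACCTG, the kind of site that E proteins bind. The table of promoters held 6 of the 10 genes (Wif1, Dkk1, Dkk2, Sfrp2, Sfrp5 and Frzb). Dkk2, Sfrp2 and Sfrp5, not shown, also had groups that overlapped, and the Sfrp5 window held an E-box match.
Wif1, chr10:121033754-121034003, plus strand: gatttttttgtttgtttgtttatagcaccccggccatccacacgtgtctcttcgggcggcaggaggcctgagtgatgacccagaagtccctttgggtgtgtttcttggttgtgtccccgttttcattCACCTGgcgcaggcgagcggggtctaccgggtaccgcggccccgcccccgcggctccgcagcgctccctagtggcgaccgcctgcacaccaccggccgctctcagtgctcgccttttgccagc
Frzb, chr2:80447397-80447646, minus strand: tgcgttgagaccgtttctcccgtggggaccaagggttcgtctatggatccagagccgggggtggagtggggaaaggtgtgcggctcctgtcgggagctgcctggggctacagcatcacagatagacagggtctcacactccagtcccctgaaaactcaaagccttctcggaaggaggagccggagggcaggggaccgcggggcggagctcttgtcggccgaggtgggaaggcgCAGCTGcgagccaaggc
Dkk1, chr19:30549497-30549746, minus strand: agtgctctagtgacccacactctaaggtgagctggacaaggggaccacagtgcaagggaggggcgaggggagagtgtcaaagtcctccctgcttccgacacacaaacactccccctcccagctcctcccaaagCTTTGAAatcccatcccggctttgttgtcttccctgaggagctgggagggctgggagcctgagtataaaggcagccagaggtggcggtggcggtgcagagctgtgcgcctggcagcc

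An E-box match was found in the windows of Wif1, Sfrp5 and Frzb, 3 of the 6, and in 27.7% of the 32851 promoters of the same length in the table. A TCF/LEF match was found in 1 of the 6, that of Dkk1, and in 7.48% of all promoters. None of the matches overlapped. The windows are short and were searched for those letters only, so a match is a description of the sequence, and its absence says nothing of binding elsewhere.

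Wif1 had the highest mean over the 7 libraries of the 10 genes and the largest difference between genotypes. Wif1 (chromosome 10, 120471060 to 120537698) encodes a protein with a WIF domain that binds Wnt ligands in the extracellular space. Its level was 127, 611 and 258 FPKM in deleted replicates 1 to 3, against 103, 78.8, 37.9 and 27.4 FPKM in wildtype replicates 1 to 4. The groups did not overlap, but deleted replicate 1 was only 1.23 times wildtype replicate 1, while the highest and lowest libraries were 22.3-fold apart. The mean was 332 ± 250.0 FPKM in deleted libraries (SD, n = 3) and 61.8 ± 35.4 FPKM in wildtype libraries (SD, n = 4), a ratio of 5.37. On the log2(FPKM + 1) scale the difference was 2.31 (SE 0.61, 95% confidence interval 0.89 to 3.72), with a limma p of 0.00566 before and 0.795 after adjustment over all genes. The exact permutation p was 0.0286, the smallest that 3 against 4 libraries can give. The difference was 1.62 within BI, 2.96 within BM and 1.73 without deleted replicate 2, where the deleted mean was 193 FPKM. Among all genes tested, 14 had a larger positive difference, which ranks Wif1 at place 15.

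Notum followed at lower levels. Notum (chromosome 11, 120515103 to 120522151) encodes a secreted carboxylesterase that cleaves the palmitoleate from Wnt proteins, and it is a feedback gene of the pathway. It was at 54.7, 205 and 86.3 FPKM in deleted replicates 1 to 3, against 46.5, 47.1, 28.3 and 35.5 FPKM in wildtype replicates 1 to 4. The lowest deleted library stood at 1.16 times the highest wildtype library, and deleted replicate 2 stood far above the rest. The means were 115 ± 79.2 FPKM in deleted (SD, n = 3) and 39.3 ± 9.09 FPKM in wildtype libraries (SD, n = 4), a ratio of 2.93. On the log2(FPKM + 1) scale Notum differed by 1.34 (SE 0.41, 95% confidence interval 0.38 to 2.30; limma p = 0.0123, adjusted p = 0.795; exact permutation p = 0.0286). It was 1.16 within BI, 1.42 within BM and 0.82 without deleted replicate 2, where the deleted mean was 70.5 FPKM.

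The level of Wif1 relative to Notum also separated the genotypes. The ratio of their FPKM values was 2.33, 2.98 and 2.99 in deleted replicates 1 to 3, against 2.22, 1.67, 1.34 and 0.772 in wildtype replicates 1 to 4. Wif1 was above Notum in every library except wildtype replicate 4. These ratios were looked at after the levels were known and carry no test. How often ratios of other gene pairs separate these groups was not counted.

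Among the secreted frizzled-related proteins, which bind Wnt ligands through a domain like that of the Frizzled receptors, Frzb alone had groups that did not overlap. Frzb (also called Sfrp3; chromosome 2, 80252127 to 80287553) was at 13.0, 36.0 and 15.8 FPKM in deleted replicates 1 to 3, against 9.65, 9.80, 12.7 and 12.6 FPKM in wildtype replicates 1 to 4. The gap between the groups was narrow, since deleted replicate 1 stood at 1.02 times wildtype replicate 3. The deposited upper bound of wildtype replicate 3 was 13.5 FPKM, above the level of deleted replicate 1, so counting error alone could close the gap. The means were 21.6 ± 12.6 FPKM in deleted (SD, n = 3) and 11.2 ± 1.68 FPKM in wildtype libraries (SD, n = 4). On the log2(FPKM + 1) scale they differed by 0.77 (SE 0.31, 95% confidence interval 0.04 to 1.50; limma p = 0.0418, adjusted p = 0.795; exact permutation p = 0.0286). It was 1.08 within BI and 0.30 within BM. Without deleted replicate 2 it was 0.34, with an unadjusted limma p of 0.0663, so the larger part of this difference came with that library.

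Sfrp1 and Sfrp2 were the most abundant frizzled-related genes, and their groups overlapped. Sfrp1 (chromosome 8, 24521974 to 24560104) was at 48.5, 61.0 and 56.9 FPKM in deleted replicates 1 to 3, against 46.1, 48.3, 102 and 57.3 FPKM in wildtype replicates 1 to 4. Wildtype replicate 3 was far above the other 6 libraries, which lay between 46.1 and 61.0 FPKM. The difference was -0.12 (SE 0.27, 95% confidence interval -0.74 to 0.50; exact permutation p = 0.914), 0.20 within BI and -0.42 within BM, and it turned to 0.13 without wildtype replicate 3. Sfrp2 (chromosome 3, 83570243 to 83578236) was at 64.7, 106 and 87.6 FPKM in deleted replicates 1 to 3, against 68.3, 49.0, 103 and 42.6 FPKM in wildtype replicates 1 to 4. Here too wildtype replicate 3 stood apart from its group, at the level of the highest deleted library. The Sfrp2 difference was 0.44 (SE 0.31, 95% confidence interval -0.28 to 1.16; exact permutation p = 0.286), 0.51 within BI and 0.40 within BM. Without wildtype replicate 3 it was 0.68, with a limma p of 0.0259 before and 0.844 after adjustment, and the groups still overlapped. Without deleted replicate 2 it was 0.28. Leaving out any library other than wildtype replicate 3 gave an unadjusted limma p of 0.114 to 0.448.

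Sfrp4 was low in every library but 1. Sfrp4 (chromosome 13, 19715044 to 19724692), which is known from bone and from phosphate handling, was at 2.24, 4.32 and 6.61 FPKM in deleted replicates 1 to 3, against 3.54, 2.76, 25.6 and 2.61 FPKM in wildtype replicates 1 to 4. Wildtype replicate 3 set the wildtype mean of 8.63 ± 11.3 FPKM (SD, n = 4), which was 2.97 FPKM without it, beside a deleted mean of 4.39 ± 2.19 FPKM (SD, n = 3). On the log2(FPKM + 1) scale Sfrp4 differed by -0.33 (SE 0.71, 95% confidence interval -1.96 to 1.31; exact permutation p = 0.914) and turned to 0.36 without that library. It was 0.01 within BI and -0.36 within BM. Inferred fragments were 1043 in wildtype replicate 3 and 64 to 252 in the other libraries, so its high value does not rest on a handful of fragments.

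Sfrp5 (chromosome 19, 42272461 to 42276742) was under 1 FPKM in every library. It was at 0.0271, 0.295 and 0.120 FPKM in deleted replicates 1 to 3, against 0.189, 0.119, 0.315 and 0.233 FPKM in wildtype replicates 1 to 4. The groups overlapped, and these values rest on 1 to 14 inferred fragments per library. The gene was under the filter of the test over all genes. Its exact permutation p was 0.371, and with no filter its log2(FPKM + 1) difference was -0.09, with an unadjusted limma p of 0.365.

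The groups of all 3 Dickkopf genes overlapped. Dkk1 (chromosome 19, 30620374 to 30623986), an LRP5/6 antagonist and a beta-catenin target in many tissues, was at 6.00, 9.86 and 8.23 FPKM in deleted replicates 1 to 3, against 7.29, 12.9, 8.29 and 6.40 FPKM in wildtype replicates 1 to 4. Its highest level was in wildtype replicate 2, and the deleted libraries lay inside the wildtype range except for deleted replicate 1, the lowest of all. The difference was -0.09 (SE 0.24, 95% confidence interval -0.65 to 0.48; exact permutation p = 0.743), -0.30 within BI and 0.16 within BM. It turned to 0.09 without deleted replicate 1 and to 0.10 without wildtype replicate 2. Dkk2 (chromosome 3, 131748256 to 131843268), which binds the same co-receptors, was at 23.2, 39.5 and 35.5 FPKM in deleted replicates 1 to 3, against 25.5, 31.0, 34.2 and 21.5 FPKM in wildtype replicates 1 to 4. Deleted replicates 2 and 3 stood above the highest wildtype library, and deleted replicate 1 lay inside the wildtype range. The difference was 0.20 (SE 0.22, 95% confidence interval -0.30 to 0.71; exact permutation p = 0.457), 0.10 within BI, 0.37 within BM and 0.05 without deleted replicate 2. Dkk3 (chromosome 7, 119259533 to 119302571), a divergent member of the family that does not act as a classical LRP antagonist, was at 23.2, 44.6 and 27.0 FPKM in deleted replicates 1 to 3, against 21.2, 28.5, 29.0 and 16.3 FPKM in wildtype replicates 1 to 4. Deleted replicate 2 stood alone above the wildtype range. The Dkk3 difference was 0.38 (SE 0.27, 95% confidence interval -0.24 to 1.00; exact permutation p = 0.343), 0.38 within BI, 0.29 within BM and 0.11 without deleted replicate 2. The intervals of Dkk2 and Dkk3 reach 0.71 and 1.00, so changes of that size are within what these libraries allow. Over the 3 Dickkopf genes and Sfrp1, Sfrp2 and Sfrp4 the limma adjusted p was 0.795 to 0.924.

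**Figure D2:**
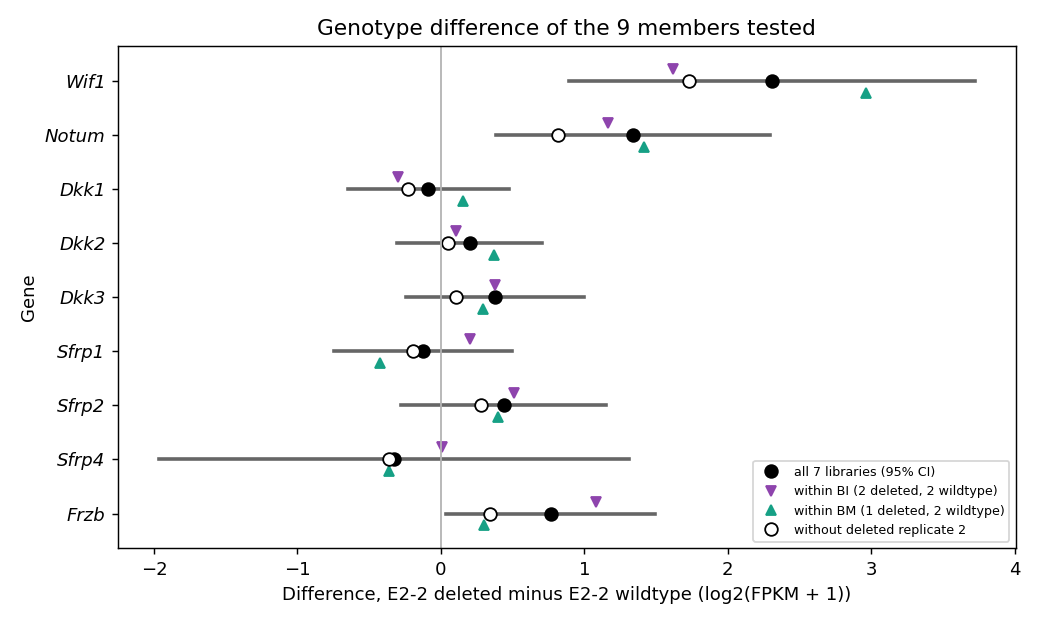
Difference in log2(FPKM + 1), E2-2 deleted minus E2-2 wildtype, for the 9 genes tested, with the 95% confidence interval of the limma fit, the differences within the BI and BM prefixes, and the difference without deleted replicate 2 (open circle). The intervals of Wif1, Notum and Frzb lie above 0 before any adjustment, and those of the other 6 genes span 0.

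Counting error was small beside the spread between libraries for these differences. Wif1 rested on 1270 to 22348 inferred fragments per library and Notum on 1269 to 6688, which gives a counting error of at most 2.81% for each. The coefficient of variation between deleted libraries was 75.3% for Wif1 and 68.7% for Notum, and between wildtype libraries 57.2% and 23.1%. For Dkk1, with 265 to 442 fragments, the counting error was at most 6.14%, against 24.1% in deleted and 33.2% in wildtype libraries. For Frzb, with 393 to 1750 fragments, it was at most 5.04%, against 58.1% in deleted and 15.1% in wildtype libraries. The gap of 1.02 times between the Frzb groups was within counting error.

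The make-up of the summed level differed between the genotypes mainly through Wif1. Summed over the 10 genes, the level was 363, 1117 and 582 FPKM in deleted replicates 1 to 3, against 331, 308, 382 and 222 FPKM in wildtype replicates 1 to 4. These groups overlapped. Without Wif1 and Notum the sum was 181, 301 and 238 FPKM in deleted replicates 1 to 3, against 182, 182, 316 and 160 FPKM in wildtype replicates 1 to 4. Wif1 made up 35.1%, 54.7% and 44.3% of the full sum in the deleted replicates, against 31.1%, 25.6%, 9.93% and 12.3% in the wildtype replicates. The frizzled-related genes together made up 27.6 ± 8.48% in deleted (SD, n = 3) and 47.5 ± 13.0% in wildtype libraries (SD, n = 4), and the Dickkopf genes 11.7 ± 3.05% and 19.6 ± 2.99%. Shares of 1 sum are tied to each other, so a larger share of Wif1 lowers the others. They restate the levels given above and carry no test. Wif1 was the highest of the 10 genes in all deleted libraries and in wildtype replicates 1 and 2, while Sfrp2 led in wildtype replicate 3 and Sfrp1 in wildtype replicate 4.

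**Figure D3:**
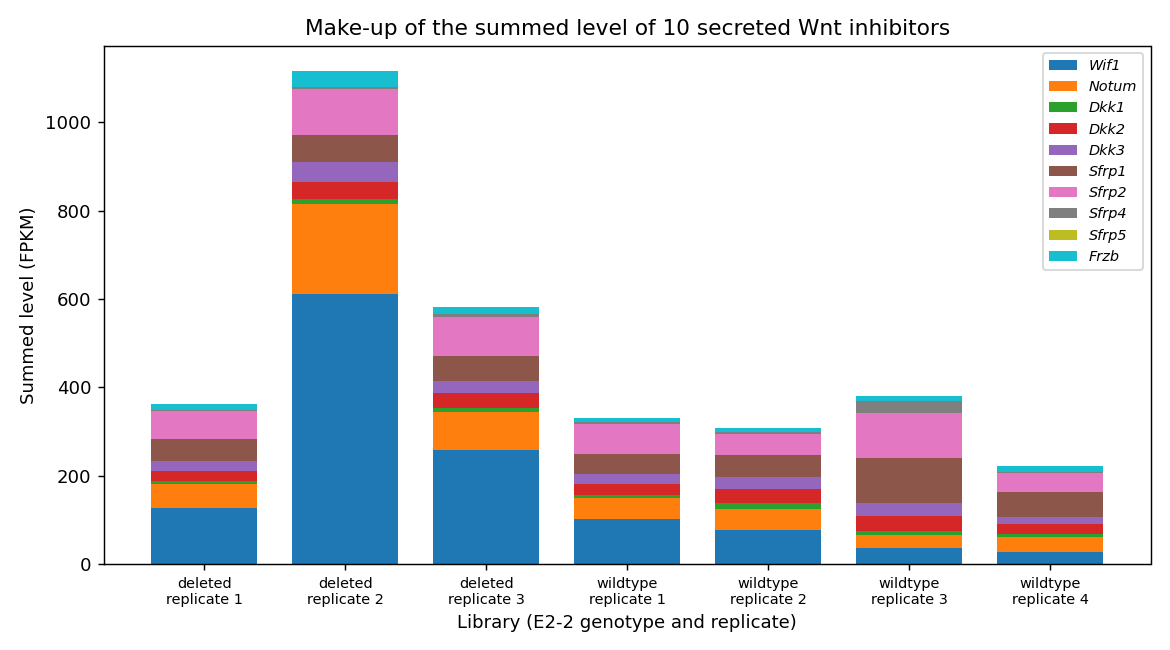
Summed level (FPKM) of the 10 secreted Wnt inhibitors in each library, stacked by gene, with the deleted libraries on the left. The blue (Wif1) segment takes 35.1% to 54.7% of the bar in deleted libraries and 9.93% to 31.1% in wildtype libraries.

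Other genes of the pathway were read from lists of ligands, receptors, agonists, other inhibitors and intracellular feedback genes, and by limma 0 genes of any list passed over all genes tested. Of 14 Wnt ligand genes tested, 6 were higher in deleted libraries at an unadjusted p under 0.05 and 0 were lower, with a median difference of 0.52. Over all genes tested, 3.29% were higher at that level and 1.2% were lower. The 3 ligands of smallest p were Wnt10a, Wnt6 and Wnt10b. Wnt6 was at 15.3, 49.6 and 24.9 FPKM in deleted replicates 1 to 3, against 9.44, 10.9, 4.60 and 3.82 FPKM in wildtype replicates 1 to 4. Wnt10a was at 6.66, 23.3 and 12.5 FPKM in deleted replicates 1 to 3, against 4.24, 4.44, 1.82 and 1.63 FPKM in wildtype replicates 1 to 4. Of the 14 ligands, 4 had groups that did not overlap in the upward direction, against 2.84% of all genes tested. Wnt10a, Wnt6 and Wnt10b were among them, with differences of 1.83 (SE 0.43), 1.86 (SE 0.45) and 1.03 (SE 0.31). Without deleted replicate 2 the count of ligands at that p was 4 of 14 (1.52% of all genes) and these differences were 1.42, 1.43 and 0.66. Leaving out 1 library gave 3 (without wildtype replicate 4) to 7 ligands (without deleted replicate 1), where 254 and 834 of the 13469 genes were higher.

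Of 8 intracellular feedback and target genes, all 8 had a positive difference and 5 were higher at an unadjusted p under 0.05, with 5 also without deleted replicate 2. Leaving out 1 library gave 3 (without wildtype replicate 3 or 4) to 6 (without deleted replicate 1). In those 3 settings 308, 254 and 834 of the 13469 genes were higher at that p. Over all genes tested, 39.3% had a positive difference. The share higher at that p was 3.29%, and 1.52% without deleted replicate 2. The median difference of the 8 was 0.87. Axin2, a scaffold of the destruction complex and a standard readout of beta-catenin activity, was at 32.0, 94.9 and 37.9 FPKM in deleted replicates 1 to 3, against 20.2, 26.4, 18.6 and 19.9 FPKM in wildtype replicates 1 to 4. Its difference was 1.17 (SE 0.34), and those of the TCF/LEF genes Tcf7 and Lef1 were 0.90 (SE 0.26) and 0.84 (SE 0.29). The difference of Nkd2, an intracellular Wnt antagonist, was 1.16 (SE 0.40). Without deleted replicate 2 the differences of Axin2, Tcf7, Lef1 and Nkd2 were 0.70, 0.59, 0.47 and 0.64. Of 10 other extracellular and membrane inhibitors tested, 2 were higher at an unadjusted p under 0.05, and 1 without deleted replicate 2, with a median difference of 0.01. These were Apcdd1, a membrane protein that binds ligand and co-receptor, with a difference of 1.30 (SE 0.42; 0.78 without deleted replicate 2), and Znrf3, a ubiquitin ligase that removes Frizzled receptors, with 0.60 (SE 0.24; 0.35 without it). Kremen1, a receptor for Dickkopf proteins, differed by 0.45 (SE 0.21; 0.18 without it). Of the 17 receptor and co-receptor genes (median difference 0.05), 3 were higher at that level (Fzd10, Lgr6 and Lgr5, by 1.18, 1.28 and 0.46; 0.80, 0.76 and 0.35 without deleted replicate 2, where 2 were). Of 5 genes for agonists and ligand secretion (median difference 0.27), 1 was (Rspo4, by 0.83, with overlapping groups), and 0 without deleted replicate 2, where Rspo4 differed by 0.67. Wls and Rspo3, the other genes of smallest p there, differed by 0.44 (SE 0.20) and 0.27 (SE 0.17), and by 0.22 and 0.18 without deleted replicate 2.

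The genes whose levels over the 7 libraries were most like those of Wif1 included the ligand genes Wnt10a and Wnt6. By Pearson's r of log2(FPKM + 1) over 7 libraries, the 4 nearest to Wif1 were Wnt10a (0.992), Slc8a3 (0.992), a sodium-calcium exchanger, Smpd3 (0.992), a sphingomyelinase, and Wnt6 (0.991). With the genotype means subtracted, r was 0.982, 0.977, 0.976 and 0.976. The 4 nearest to Notum were Dcc (0.995), a netrin receptor, Prkcb (0.993), a protein kinase C, Sp7 (0.993), an osteoblast transcription factor, and Grb14 (0.993), an adaptor of the insulin receptor. With the genotype means subtracted these were 0.989, 0.985, 0.989 and 0.982. Wif1 and Notum had an r of 0.952 with each other (0.881 with the genotype means subtracted). For the other members tested, r with Wif1 was 0.740 for Frzb, 0.725 for Dkk3, 0.603 for Dkk2, 0.566 for Sfrp2, 0.270 for Dkk1, -0.171 for Sfrp4 and -0.267 for Sfrp1. With the genotype means subtracted these were 0.454, 0.670, 0.601, 0.364, 0.653, -0.0652 and -0.226. With Notum, r was 0.867 (Frzb), 0.715 (Dkk3), 0.577 (Dkk2), 0.474 (Sfrp2), 0.285 (Dkk1), -0.226 (Sfrp1) and -0.234 (Sfrp4). With the genotype means subtracted these were 0.742, 0.630, 0.529, 0.206, 0.609, -0.153 and -0.170. Axin2 and Lef1 had an r of 0.976 and 0.924 with Notum (0.942 and 0.828 with the genotype means subtracted). With Wif1 these were 0.910 and 0.802 (0.757 and 0.523). All these values share the same 7 libraries and their genotypes, and they are given as a description.

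Markers of the kidney rudiment and of other cell types, some foreign to the kidney, were read in the same libraries. By limma, 0 of these markers passed the adjusted threshold. Over all genes tested, 3.29% were higher in deleted libraries at an unadjusted p under 0.05, and 1.52% without deleted replicate 2. Of 7 melanocyte markers tested, 7 were higher in deleted libraries at an unadjusted p under 0.05 (6 without deleted replicate 2). The summed level of the 8 found was 43.8, 90.6 and 125 FPKM in deleted replicates 1 to 3, against 33.6, 17.1, 8.40 and 15.5 FPKM in wildtype replicates 1 to 4, and none was at 0 in every library. Of 6 osteoblast markers tested, 4 were higher at that level (2 without deleted replicate 2). Leaving out 1 library gave 1 (without wildtype replicate 3) to 6 (without wildtype replicate 2), where 308 and 476 of the 13469 genes were higher. The osteoblast sums over the 7 found were 33.0, 85.5 and 85.3 FPKM in deleted replicates 1 to 3, against 44.5, 20.5, 9.19 and 12.0 FPKM in wildtype replicates 1 to 4. These sums overlapped between the groups, and none of the 7 genes was at 0 in every library. Sp7, among the genes nearest to Notum, belongs to this list. Of 8 enamel and dentin markers, 3 were tested and all 3 were higher (2 without deleted replicate 2), with sums of 26.0, 35.1 and 42.3 FPKM in deleted replicates 1 to 3, against 15.2, 6.13, 2.81 and 0.769 FPKM in wildtype replicates 1 to 4. Amtn and Odam, enamel markers, were at 0 in every library, and Amelx and Mmp20 of the same list were under 1 FPKM in every library. The highest sums of the melanocyte and enamel lists were in deleted replicate 3. The osteoblast sum was about the same in deleted replicates 2 and 3, and Sp7 was at 31.2 and 10.8 FPKM there. Wif1 and Notum were highest in deleted replicate 2. The part of these cell types in the levels of Wif1, Notum and Frzb was not tested. Of the markers of macrophages (5 tested), endothelium (4), neural crest and neurons (5), erythroid cells (3), skeletal muscle (2), smooth muscle (3) and the kidney rudiment (15), 0 were past an unadjusted p of 0.05. The kidney rudiment markers had a median difference of -0.27 (-0.05 without deleted replicate 2), and 3 of the 15 were positive, against 39.3% of all genes tested. In cartilage 1 of 2 and in fibroblasts 1 of 4 were higher, and the gonad markers were too low to test. The median difference of the 2 cartilage markers was -0.13. Sums over the 6 found were 6.46 to 23.7 FPKM in deleted and 9.10 to 28.1 FPKM in wildtype libraries.

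Wildtype replicate 3, the library with the high Sfrp1, Sfrp2 and Sfrp4, had the lowest melanocyte and osteoblast sums of the 7. Its smooth muscle markers summed to 1183 FPKM, against 416 to 544 FPKM in the other wildtype libraries, and its fibroblast markers to 1306 FPKM, against 830 to 1002 FPKM. In deleted replicate 2 these sums were 1327 and 1517 FPKM, with Sfrp1 at 61.0, Sfrp2 at 106 and Sfrp4 at 4.32 FPKM. In deleted replicate 3 the sums were 366 and 1308 FPKM, with these genes at 56.9, 87.6 and 6.61 FPKM. In deleted replicate 1 the sums were 445 and 935 FPKM, with the genes at 48.5, 64.7 and 2.24 FPKM. The part of these cells in the frizzled-related levels was not tested.

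**Figure D4:**
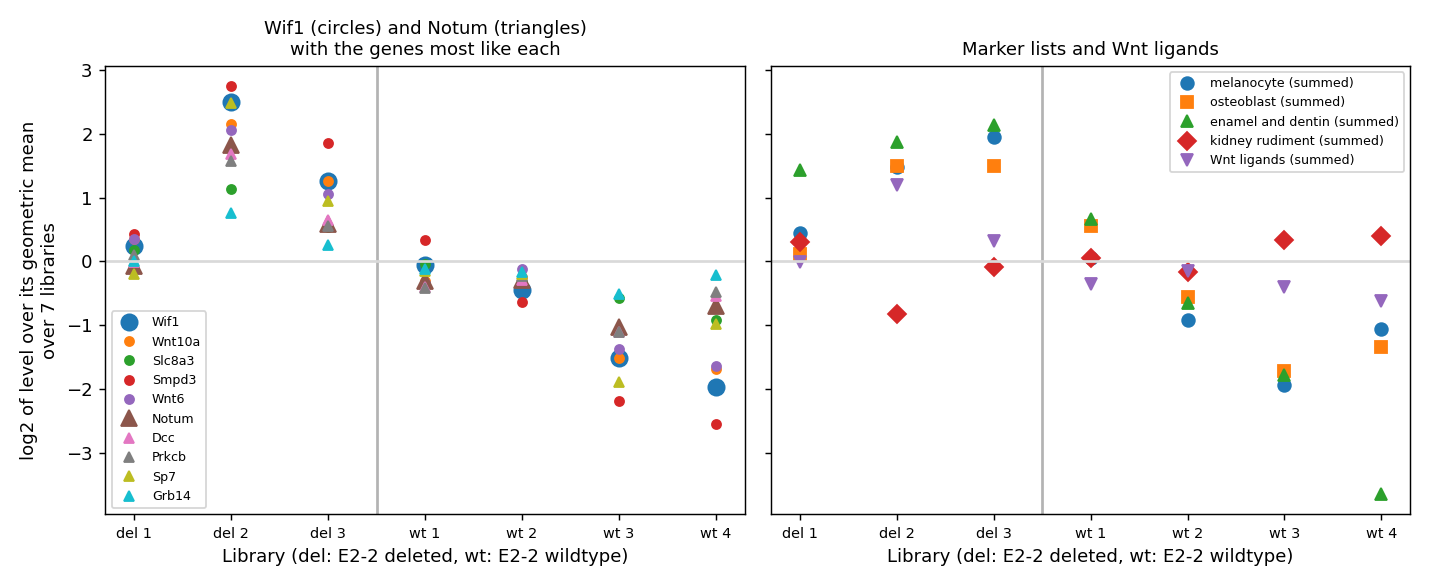
Levels in each library as log2 over the geometric mean of the 7 libraries, E2-2 deleted on the left of each panel. Left, Wif1 with its 4 nearest genes (circles) and Notum with its 4 nearest (triangles); right, summed levels of marker lists and of the Wnt ligands. Wif1, Notum and their nearest genes are highest in deleted replicate 2, where the kidney rudiment sum is lowest (267 FPKM). The melanocyte and enamel sums are highest in deleted replicate 3, and the osteoblast sum is about the same in deleted replicates 2 and 3 (85.5 and 85.3 FPKM).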

How the data were processed

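RNA of 7 cultured fetal mouse kidneys was sequenced after poly-A selection (TruSeq RNA kit, per the labels' protocols). For every library the authors deposited a gene table holding FPKM values with interval bounds, per the file headers. The submitters' processing notes name Cufflinks 2.0.2, TopHat2 2.0.4 and CASAVA 1.8.2. No genome build or annotation is named: 0 of the 10 members shared a start or end with GRCm38, so gene coordinates are the deposited ones, counted from 1, with no build named. Strand use in counting is not given either.

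Each table had 23699 entries, and 25 symbols that 1 table shows as dates were restored from the others by position. Entries of a symbol were summed. Symbols with a status other than OK in any library (203) or a locus under 200 bases (669 more) were left out. Fragments were inferred as the square of 2 times the FPKM over the distance to its upper bound. For genes of 1 start site with under 300 of them, 79.5% to 80.4% were whole to within 0.05, where chance gives 10%.

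Genes with a mean of at least 1 FPKM were compared as log2(FPKM + 1) with limma 3.58.1 in R 4.3.3, fitted across all 13469 genes (2-sided, with a mean-variance trend and adjustment by Benjamini-Hochberg over all of them, checked on simulated data). On this scale changes of genes near 1 FPKM come out too small. Single genes also had an exact permutation test (2-sided, 35 groupings). Replicates are numbered in deposit order, which pairs no libraries. The members, the lists and the rule for named genes (all members, Axin2 and Lef1 as feedback genes, up to 3 genes of smallest p per pathway list, and 4 genes most like Wif1 and Notum) were chosen with earlier results of these data known; Tcf4 was added as the targeted gene. Alternatives were the pseudocount, the filter, scaling, library weights, the trend, the prefix as a term, and leaving out each library.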

Additional observations from a re-analysis of the deposited data

Results flagged for a closer look

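In the wildtype group of 4 libraries, Sfrp4 in replicate 3 was at 25.6 FPKM, far from the other 3. The gap to the next library was 0.959 of the whole wildtype range, past the 95% critical value of Dixon's test. All 10 genes were looked at this way, 1 of them stood out so, and chance alone marks about 1 in 20 groups.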

How the results depend on the processing

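No inhibitor passed the adjusted limma threshold under any alternative run. Of all genes, 1 passed with no filter and 1 with a weight per library, against 0 as reported. The genes at an unadjusted p under 0.05 numbered 605 as reported, 1000 with no filter, 394 at a minimum mean of 5 FPKM, 1141 with a weight per library, and 250 (without deleted replicate 2) to 1473 (without deleted replicate 1) when a library was left out. That count was 336 without wildtype replicate 4. Wif1 and Notum kept an unadjusted p under 0.05 under every alternative run. Frzb lost it with no filter (0.0512), median-of-ratios scaling (0.0525), the prefix as a term (0.0556) and without deleted replicate 2 or any single wildtype library, and its groups overlapped under median-of-ratios scaling and quantile normalization. Signs turned for Sfrp1 (0.083) and Sfrp4 (0.40) with a weight per library. Leaving out 1 library gave -0.23 to 0.10 for Dkk1, -0.25 to 0.13 for Sfrp1 and -0.62 to 0.36 for Sfrp4. The causes were not tested. Depth bears most on Sfrp5, with 1 to 14 inferred fragments per library. No paired analysis was possible because the labels carry no replicate numbers.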
